A study of Mus musculus with 2 samples.

Results

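The 9 genes described here (P2ry12, P2ry13, Tmem119, Siglech, Gpr34, Slc2a5, Crybb1, Selplg and Gp9) mark microglia in their resting, homeostatic state. They were chosen by symbol from the 25827 genes of the deposited feature lists, and all 9 were found in both libraries. The measurements are UMI counts (unique molecular identifiers, 1 per captured messenger RNA molecule) per cell, from whole brains of adult mice. 1 library came from IL34LacZ/LacZ mice and 1 from IL34LacZ/+ mice, so animals of both groups carry at least 1 lacZ allele of Il34 and there is no wild-type group. Il34 encodes interleukin-34, a ligand that shares the receptor CSF1R with CSF1. Each library pools cells sorted as microglia, as border-associated macrophages, and as astrocytes, endothelium or the mural and fibroblast fraction. The sources used here do not state the number or sex of the mice, nor whether a library is 1 mouse or a pool.

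The homozygous-labelled library held 18858 barcodes with 95505407 UMIs and the heterozygous-labelled library 17168 barcodes with 87394167 UMIs, of which 9619 and 8208 cells passed the filters. Il34 itself did not check the labels. It was counted at 7.26 CPM (counts per 1e+06 UMIs of the cells summed) over all kept homozygous-labelled cells and 6.36 CPM over all kept heterozygous-labelled cells, a ratio of 1.14 (95% interval 0.978 to 1.33), and in neuron-like cells at 18.2 and 26.6 CPM, a ratio of 0.682 (0.426 to 1.10). Which part of the transcript the lacZ allele removes is not given, and a 3′ tag outside the removed part says nothing of the allele. The libraries are therefore called homozygous-labelled and heterozygous-labelled throughout. They shared 103 barcodes, of which 26 were kept in both and 0 were called microglia-like in both.

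Microglia are the macrophages of the brain parenchyma, and border-associated macrophages (BAMs) lie around vessels, in the meninges and in the choroid plexus. In healthy adult brain the homeostatic genes are used to tell microglia from BAMs and from blood-derived macrophages, and their transcripts are known to decline when microglia become activated or take on the disease-associated state. The proteins they encode do unlike things. P2ry12 and P2ry13 encode receptors for extracellular ADP, and P2RY12 steers microglial processes towards injured cells. Gpr34 encodes a receptor for lysophosphatidylserine. Siglech encodes a sialic-acid-binding lectin that signals through the adaptor DAP12 (Tyrobp) and is also found on plasmacytoid dendritic cells. Selplg encodes PSGL-1, the selectin ligand of leukocytes. Slc2a5 encodes GLUT5, a fructose transporter. Tmem119 encodes a membrane protein that is also known from osteoblasts. Crybb1 encodes a crystallin named for the eye lens, and Gp9 a subunit of the platelet receptor for von Willebrand factor.

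The gene positions are those of GENCODE vM21 on GRCm38, and all 9 genes are protein-coding. P2ry12 (ENSMUSG00000036353) lies on the minus strand of chromosome 3 from 59216272 to 59262871 and has 5 coding transcripts of 2 to 4 exons. P2ry13 (ENSMUSG00000036362) lies 5389 bp away on the same strand, from 59207892 to 59210882, with 2 exons. Both receptor genes sit inside Med12l, which runs on the opposite strand, and Gpr34 (ENSMUSG00000040229, chromosome X, 13632089 to 13640858) sits inside Cask, again on the opposite strand. Whether strand was used in counting is not given, so reads of Med12l and Cask may not be told apart from those of the genes within them. Both host genes were low in microglia-like cells, with Med12l at 65.9 and Cask at 54.1 CPM in the homozygous-labelled library, against 77.7 and 60.4 CPM in the heterozygous-labelled library.

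Tmem119 (ENSMUSG00000054675) and Selplg (ENSMUSG00000048163) are also neighbours, 18019 bp apart on chromosome 5, minus strand, with Tmem119 spanning 113793729 to 113800516 and Selplg 113818536 to 113832644. Crybb1 (ENSMUSG00000029343) lies elsewhere on chromosome 5, on the plus strand from 112255815 to 112269585, with 6 exons. Siglech (ENSMUSG00000051504) is on chromosome 7 from 55768178 to 55778925, Slc2a5 (ENSMUSG00000028976) on chromosome 4 from 150119283 to 150144169 with 14 exons, and Gp9 (ENSMUSG00000030054) on chromosome 6 from 87778072 to 87779768 with 2 exons.

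RefSeq promoter sequences on GRCm38.p6, from 250 bases before to 50 after the gene start, were found for 6 of the 9 genes (P2ry12, P2ry13, Siglech, Slc2a5, Crybb1 and Gp9). They were searched on both strands for AGGAAG, which holds the GGAA core bound by ETS factors, the family of the macrophage factor PU.1 (Spi1). It was found in 3 of the 6 (P2ry12, P2ry13 and Gp9) and in 11611 of 32841 promoters of the same length (35.4%), so its presence is common. The promoter stretches of the neighbouring ADP receptor genes and the site of Gp9 are shown because these are the promoters that hold the letters, which are in capitals (CTTCCT is their reverse complement). The P2ry13 stretch is chr3:59210883-59211002 and the P2ry12 stretch is chr3:59262986-59263105, both on the minus strand, and the Gp9 stretch is chr6:87778042-87778071 on the plus strand.
P2ry13: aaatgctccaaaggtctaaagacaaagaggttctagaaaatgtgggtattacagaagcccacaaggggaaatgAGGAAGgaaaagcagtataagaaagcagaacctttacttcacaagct
P2ry12: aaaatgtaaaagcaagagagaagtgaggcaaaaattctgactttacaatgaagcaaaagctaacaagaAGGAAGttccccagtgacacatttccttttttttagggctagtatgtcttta
Gp9: tttcaccatttcCTTCCTcctgtcaggcag
The match begins 47 bases upstream of the RefSeq start of P2ry13, 52 bases upstream of that of P2ry12 and 16 bases upstream of that of Gp9. For P2ry12 the RefSeq start lies upstream of the GENCODE start at 59262871, so the match is farther from the latter. A match describes letters only. Spi1 itself was measured in microglia-like cells at 286 CPM in the homozygous-labelled and 312 CPM in the heterozygous-labelled library (ratio 0.916, 0.831 to 1.01).

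Cell types were rebuilt by clustering without the 9 genes, and microglia-like cells were named from 10 markers, among them Sall1, Fcrls, Olfml3, Cx3cr1, Sparc, Trem2, Rtn4rl1, Sall3 and Upk1b. They numbered 990 homozygous-labelled and 724 heterozygous-labelled cells (10.3% and 8.82% of kept cells), with a median of 3037 and 2685 UMIs per cell. The sorting gate and the mixing of the sorted populations can set these shares. BAM-like cells numbered 1642 and 1780, and macrophages that carried markers of both types (mixed macrophages) 421 and 280. The 9 genes, which had no part in the naming, were all counted in these cells.

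Each of the 9 genes had its highest level in microglia-like cells in both libraries, as CPM summed over the class, among 14 classes with at least 50 cells in each library. Slc2a5 was at 177 CPM in homozygous-labelled microglia-like cells and at 230 CPM in heterozygous-labelled ones, and at no more than 27.5 CPM in any other of these classes apart from the mixed macrophages. Gp9 was at 25.3 and 49.7 CPM and at no more than 2.64 CPM (1 UMI, in mural-like cells) outside the microglia-like and mixed macrophages. The levels across the other classes were unlike from gene to gene. P2ry13 stood in MHC-II-low BAM-like cells at 140 and 128 CPM, and Gpr34 there at 256 and 257 CPM, against 5.07 and 4.40 CPM of P2ry13 and 24.7 and 17.2 CPM of Gpr34 in endothelial-like cells. Tmem119 in the same MHC-II-low cells was at 12.8 and 15.4 CPM, within counting error of its 14.6 and 11.4 CPM in endothelial-like cells.

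**Figure D1:**
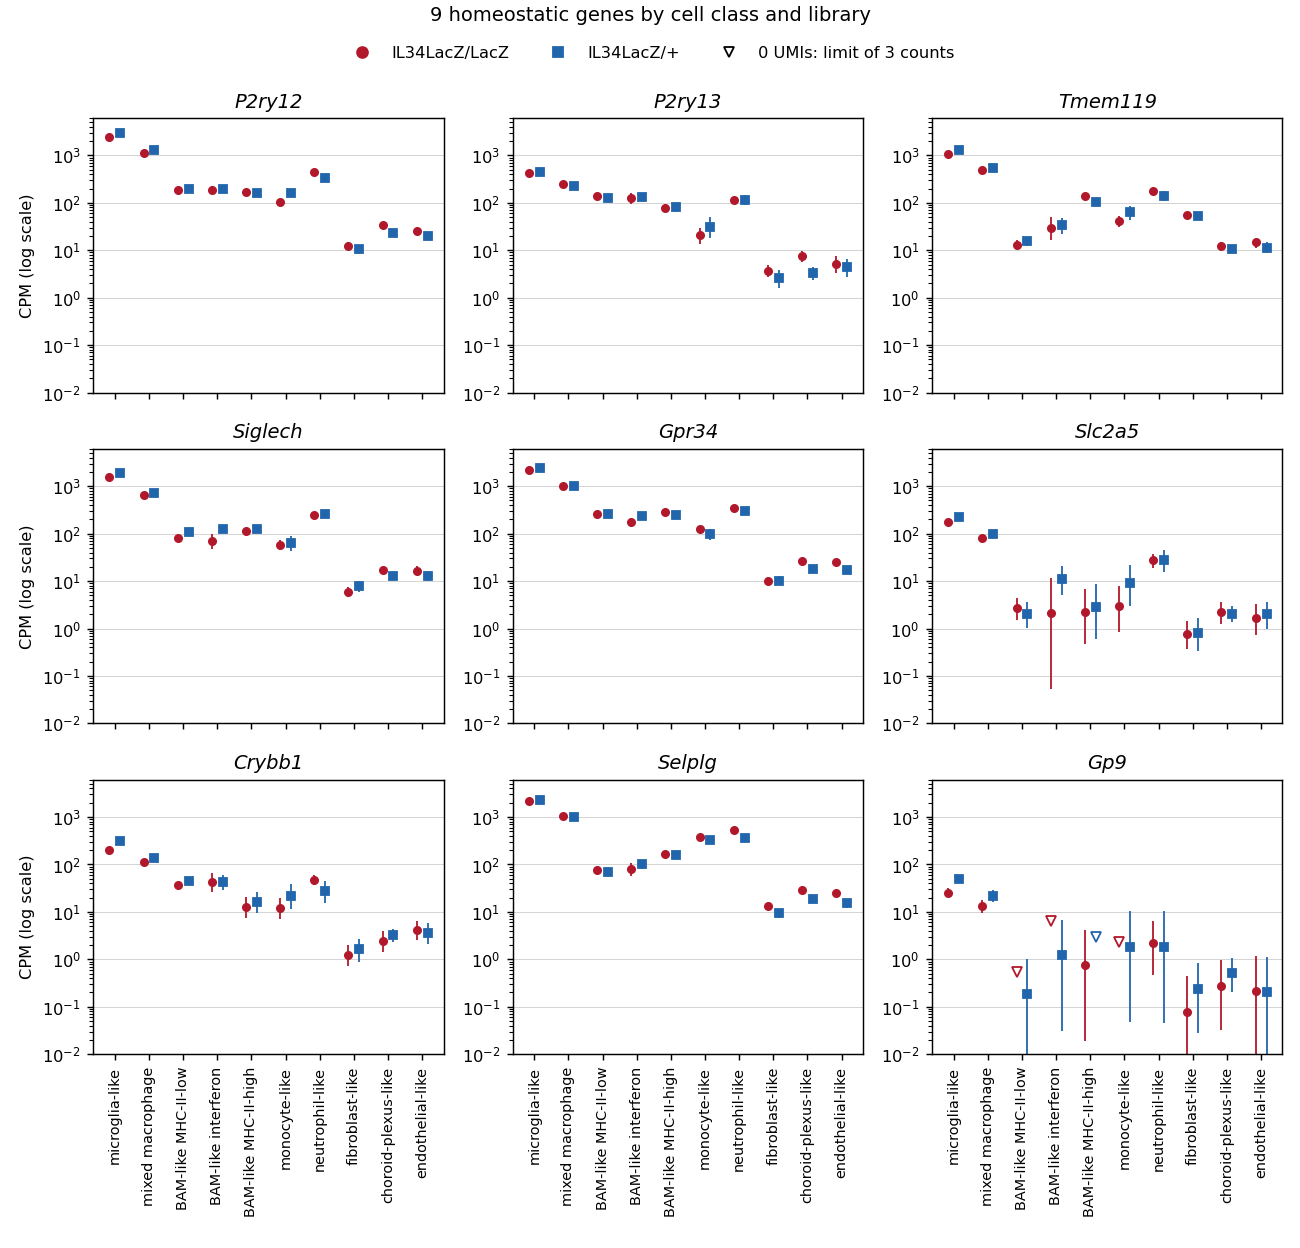
Level of each gene (CPM, log scale, 1 panel per gene) in the cell classes shown, with the homozygous-labelled library (IL34LacZ/LacZ) and the heterozygous-labelled library (IL34LacZ/+) as separate points and bars for exact Poisson 95% intervals of the count. Mural-like, ependymal-like, oligodendrocyte-like and neuron-like cells are not drawn. Open triangles mark classes with 0 UMIs at the limit of 3 counts. The microglia-like class is the highest point of every panel, at 2439 and 2935 CPM for P2ry12 and at 25.3 and 49.7 CPM for Gp9.

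The order of the classes below microglia-like cells is partly within counting error. For P2ry12, mixed macrophages (1118 and 1306 CPM) came next and then neutrophil-like cells (451 and 330 CPM), each apart from the next in both libraries. The interferon, MHC-II-low and MHC-II-high BAM-like cells (187 and 199, 187 and 193, and 168 and 163 CPM) could not be ordered among themselves. Below monocyte-like cells (104 and 162 CPM), the choroid-plexus-like, neuron-like, endothelial-like, mural-like, fibroblast-like, ependymal-like and oligodendrocyte-like classes lay between 8.09 and 34.2 CPM, and no neighbours among them were apart in both libraries. P2ry13 was ordered differently, with MHC-II-low BAM-like cells directly behind the mixed macrophages. Its levels in MHC-II-low (140 and 128 CPM) and interferon BAM-like cells (126 and 131 CPM) overlapped, and MHC-II-high cells (78.9 and 81.2 CPM) were the lowest of the BAM-like classes.

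Selplg alone of the 9 was higher in monocyte-like cells than in every BAM-like class beyond counting error in both libraries. Behind microglia-like and mixed macrophages came neutrophil-like cells (520 and 358 CPM) and monocyte-like cells (374 and 321 CPM), both above MHC-II-high (169 and 157 CPM) and MHC-II-low BAM-like cells (75.6 and 69.9 CPM). The place of neutrophil-like cells directly behind the mixed macrophages was not particular to Selplg. P2ry12, Tmem119, Siglech, Gpr34, Slc2a5 and Gp9 (3 and 1 UMIs) shared it. After thinning every cell to 1000 UMIs, a Selplg UMI was held by 29.6% of homozygous-labelled and 20.7% of heterozygous-labelled monocyte-like cells (81.0% and 64.1% unthinned), against 3.05% and 2.01% of endothelial-like cells. PSGL-1 is known from blood leukocytes. Tmem119 was also counted outside the macrophages. In fibroblast-like cells it stood at 54.5 and 52.1 CPM, above its level in endothelial-like cells in both libraries, while P2ry12 in fibroblast-like cells (12.6 and 10.4 CPM) was below its endothelial-like level.

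The neutrophil-like levels carry a limit. Those 123 and 66 cells had a median of 8207 and 7336 UMIs, and they also held 5048 and 3516 CPM of the 10 microglia markers and 4334 and 5807 CPM of the 10 BAM markers. How far cells captured together set their levels of the 9 genes was not tested.

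The make-up of the 9-gene total also differed between classes. In microglia-like cells, P2ry12 gave 23.7% of the 9 genes' UMIs in the homozygous-labelled and 24.7% in the heterozygous-labelled library, Selplg 21.3% and 19.3%, Tmem119 10.5% and 11.0%, and P2ry13 4.13% and 3.82%. Endothelial-like cells, which are not known to express these genes, held a like mix at a far lower level. There the total was 118 and 87.1 CPM, against 10301 and 11863 CPM in microglia-like cells, with P2ry12 at 21.3% and 23.0%, Selplg at 21.7% and 17.5%, Tmem119 at 12.4% and 13.1% and P2ry13 at 4.30% and 5.06%. The endothelial-like interval held the microglia-like share of the same library for 8 of the 9 genes. The exception was Crybb1 in the homozygous-labelled library, at 3.58% (2.203 to 5.48) in endothelial-like and 1.99% in microglia-like cells. Gp9 rested on 1 and 1, Slc2a5 on 8 and 10 and P2ry13 on 24 and 22 endothelial-like UMIs. Intervals from so few UMIs are wide, so for these genes a share inside the interval says little.

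MHC-II-low BAM-like cells had another mix. P2ry13 gave 17.6% and 15.7% and Gpr34 32.2% and 31.4% of their 9-gene UMIs, while Tmem119 gave 1.61% and 1.89% and Selplg 9.53% and 8.56%. None of these intervals reached the microglia-like share. In MHC-II-high BAM-like cells P2ry13 stood between, at 8.18% and 9.06%, while Tmem119 did not, at 14.2% (12.4 to 16.3) and 11.8% (9.75 to 14.01). The homozygous-labelled share of Tmem119 was above that of microglia-like cells, and the heterozygous-labelled interval held it. Those cells also held more of the microglia markers, which summed to 5018 and 4385 CPM over the 10 markers, against 3303 and 3473 CPM in MHC-II-low cells. In fibroblast-like cells Tmem119 alone gave 53.4% and 54.8%.

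**Figure D2:**
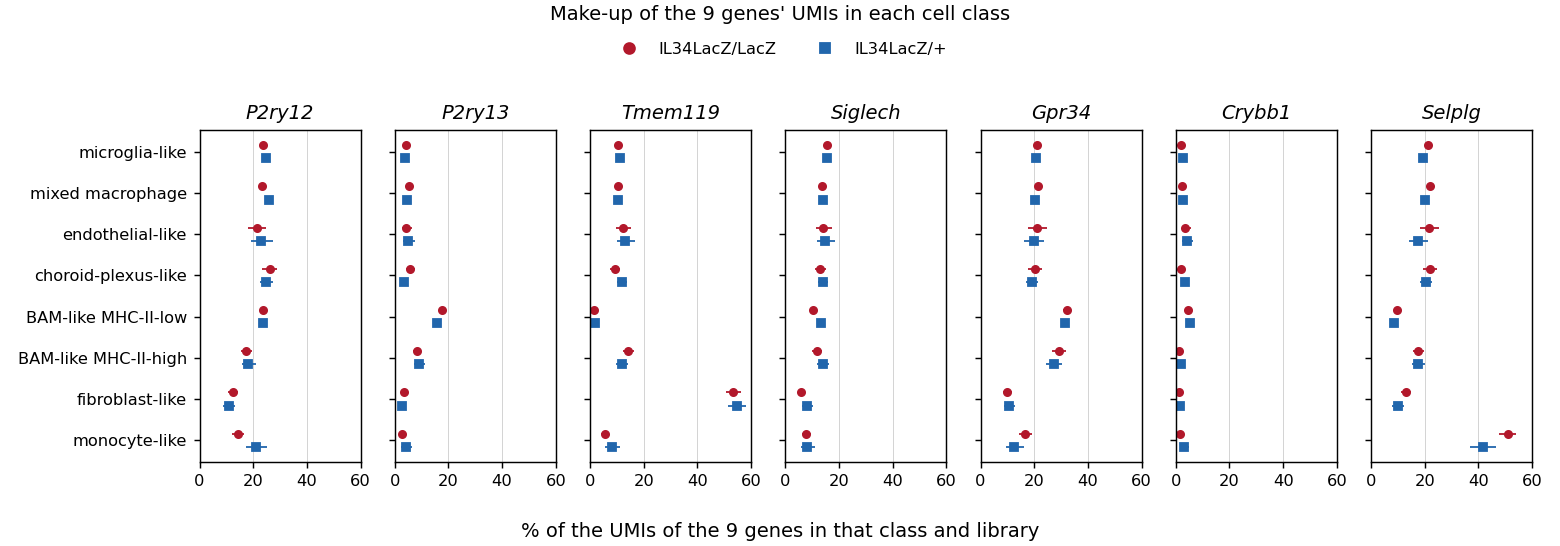
Share of the 9 genes' UMIs (%) that P2ry12, P2ry13, Tmem119, Siglech, Gpr34, Crybb1 and Selplg gave in the cell classes shown, 1 panel per gene, for the homozygous-labelled (IL34LacZ/LacZ) and heterozygous-labelled (IL34LacZ/+) libraries, with exact Clopper-Pearson 95% intervals. Slc2a5 and Gp9 are not drawn. P2ry13 is at 17.6% and 15.7% in MHC-II-low BAM-like cells and at 4.13% and 3.82% in microglia-like cells, and Tmem119 reaches 53.4% and 54.8% in fibroblast-like cells.

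Shares of cells with a UMI gave the same picture at equal depth. After every cell was thinned to 1000 UMIs, P2ry12 was detected in 87.6% and 90.9% of microglia-like cells (97.6% and 98.3% unthinned), in 17.9% and 18.3% of MHC-II-low BAM-like cells and in 2.42% and 2.77% of endothelial-like cells (median depth 2095.5 and 2115 UMIs). P2ry13 was detected in 32.9% and 35.8% of microglia-like cells (67.5% and 64.1% unthinned), in 13.2% and 11.2% of MHC-II-low BAM-like cells and in 0.403% and 0.544% of endothelial-like cells. Tmem119 was detected in 59.9% and 68.4% of microglia-like cells (88.1% and 87.6% unthinned), but in only 1.44% and 1.54% of MHC-II-low BAM-like cells, near the 1.498% and 1.31% of endothelial-like cells. No cell fell below 1000 UMIs, so none was left out. Both ADP receptors and Gpr34 (23.0% and 23.0% of MHC-II-low BAM-like cells, 2.13% and 1.58% of endothelial-like cells) were thus above their endothelial-like share in BAM-like cells. The part of free RNA in either class was not tested.

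Within single cells, the 9 genes together gave a median of 1.02% of all UMIs of a homozygous-labelled microglia-like cell and 1.17% of a heterozygous-labelled one. The 10th to 90th percentiles were 0.576% to 1.52% and 0.737% to 1.64%. BAM-like cells had medians of 0.0704% and 0.0709%, and their 90th percentiles (0.176% and 0.173%) lay below the microglia-like 10th percentiles. Mixed macrophages had 0.488% and 0.502%. At least 5 of the 9 genes were detected in 91.0% and 91.3% of microglia-like cells and in 5.24% and 6.18% of BAM-like cells. The 9 genes had no part in naming the classes. The mixed macrophages, which lay between, were however held out of both by thresholds set after seeing the data. The gap between the 2 classes is therefore a description and no test.

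The fold between microglia-like and BAM-like cells spanned a wide range within the 9. Of all 9917 genes with at least 100 UMIs in these classes, 1.01% were at least 10-fold higher in microglia-like cells in both libraries, and 6 of the 9 were: Slc2a5, Tmem119, Selplg, Siglech, P2ry12 and Gp9. Slc2a5 was 69.5-fold (44.1 to 116) higher in the homozygous-labelled and 72.9-fold (48.0 to 116) higher in the heterozygous-labelled library. For Tmem119 the folds were 30.1 (26.6 to 34.2) and 43.4 (37.8 to 49.95), and for Selplg 23.7 (21.9 to 25.6) and 26.7 (24.6 to 29.1). Siglech followed with 18.3 (16.8 to 19.9) and 16.6 (15.4 to 17.9), and P2ry12 with 13.3 (12.5 to 14.1) and 15.5 (14.6 to 16.4). Gp9 had 1 and 2 UMIs in all BAM-like cells, which gives ratios of 189 (33.0 to 7530) and 182 (49.1 to 1517).

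The other 3 were less separated. Gpr34 was 8.49-fold (8.07 to 8.93) and 9.64-fold (9.14 to 10.2) higher in microglia-like than BAM-like cells, Crybb1 6.21-fold (5.36 to 7.21) and 7.98-fold (6.95 to 9.18), and P2ry13 3.32-fold (3.06 to 3.61) and 3.72-fold (3.40 to 4.07). P2ry12 and P2ry13, neighbours in the genome and both ADP receptors, therefore differed in how far they set microglia apart. BAM-like cells held 26.0% and 34.3% of the P2ry13 UMIs of all kept cells, but 8.998% and 11.9% of those of P2ry12. Tmem119 depended most on the BAM-like class it was set against. Its fold was 84.8 (67.1 to 109) and 84.9 (68.3 to 107) over MHC-II-low cells, but 7.88 (6.78 to 9.19) and 12.4 (10.2 to 15.2) over MHC-II-high cells.

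Crybb1 went the other way among the BAM-like classes. It stood at 37.0 and 43.8 CPM in MHC-II-low cells, above its 12.9 and 16.4 CPM in MHC-II-high cells and its 4.23 and 3.60 CPM in endothelial-like cells. Siglech was at 82.7 and 107 CPM in MHC-II-low and 113 and 125 CPM in MHC-II-high BAM-like cells. The markers of plasmacytoid dendritic cells, the other cell type known for it, summed to 12.96 and 12.88 CPM over 7 genes in microglia-like cells, with Klk1 at 0 UMIs. Platelet markers, the cell type known for Gp9, summed to 41.5 and 31.1 CPM over 7 genes there, and their defining members Ppbp, Gp1bb and Gp1ba had 0 UMIs in both libraries, which allows up to 0.864 and 1.33 CPM each.

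Between the libraries, the 9 genes were lower in homozygous-labelled than in heterozygous-labelled microglia-like cells, with ratios from 0.509 to 0.959, although the ratio of Selplg lay above 1 under 3 other weightings of the cells. Each genotype has 1 library and no replicate, so the difference was not testable. The intervals cover counting error only, and genotype cannot be told apart from animal, sort or library preparation. The summed level was 10301 CPM (10195 to 10409) in homozygous-labelled and 11863 CPM (11721 to 12006) in heterozygous-labelled microglia-like cells, a ratio of 0.868 (0.855 to 0.882). All 9 ratios were below 1, as were 49.9% of the 6647 genes with at least 100 UMIs. The median of the 9 ratios was 0.831, against 1.0003 over the 6647 genes.

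The ADP and lipid receptors differed among themselves. P2ry12 was at 2439 CPM (2387 to 2491) in the homozygous-labelled and 2935 CPM (2865 to 3007) in the heterozygous-labelled library, a ratio of 0.831 (0.805 to 0.858). P2ry13 was at 425 CPM (404 to 448) and 453 CPM (426 to 482), a ratio of 0.939 (0.866 to 1.02), and its levels overlapped within counting error. Gpr34 was at 2164 CPM (2116 to 2214) and 2431 CPM (2367 to 2496), a ratio of 0.890 (0.860 to 0.922). The lower level of P2ry12 and Gpr34 was thus beyond counting error and that of P2ry13 was not.

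Among the surface lectin, the selectin ligand and Tmem119, Selplg stood nearest to 1. Siglech was at 1594 CPM (1552 to 1637) in homozygous-labelled and 1857 CPM (1801 to 1914) in heterozygous-labelled microglia-like cells, a ratio of 0.858 (0.825 to 0.894). Tmem119 was at 1081 CPM (1047 to 1116) and 1307 CPM (1260 to 1355), a ratio of 0.827 (0.788 to 0.868). Selplg was at 2190 CPM (2141 to 2239) and 2284 CPM (2222 to 2347), a ratio of 0.959 (0.925 to 0.993). The direction for Selplg did not hold when every cell was given equal weight (log2 ratio 0.029), or as a mean within the 2 clusters (0.041) or within 3 depth ranges (0.036) of the class.

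The fructose transporter, the crystallin and the platelet subunit had the lowest ratios. Slc2a5 was at 177 CPM (164 to 192) in homozygous-labelled and 230 CPM (210 to 250) in heterozygous-labelled microglia-like cells, a ratio of 0.772 (0.686 to 0.870). Crybb1 was at 205 CPM (191 to 221) and 317 CPM (294 to 341), a ratio of 0.647 (0.583 to 0.719). Gp9 was at 25.3 CPM (20.3 to 31.2) and 49.7 CPM (41.0 to 59.9), a ratio of 0.509 (0.381 to 0.680), from 88 and 112 UMIs. Of the 6647 genes measured, 1 other had a lower ratio than Gp9. Crybb1 was also detected in fewer cells at equal depth, in 17.1% of homozygous-labelled and 27.2% of heterozygous-labelled microglia-like cells after thinning (40.1% and 49.9% unthinned).

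Counted past a fold of 1.2, 5 of the 9 were lower in the homozygous-labelled library (P2ry12, Tmem119, Slc2a5, Crybb1 and Gp9), against 10.2% of all measured genes, and 0 were higher, against 13.2%. P2ry12 and Tmem119 lay just past that fold and Siglech just short of it. Past 1.5-fold there were 2, Crybb1 and Gp9, against 0.812% of genes. Low counts scatter more, so deep genes are the fairer background. Of the 553 genes with at least the 1427 UMIs of Crybb1, 18 were at least 1.2-fold lower (3.25%), and 3 of the 7 homeostatic genes at that depth were.

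**Figure D3:**
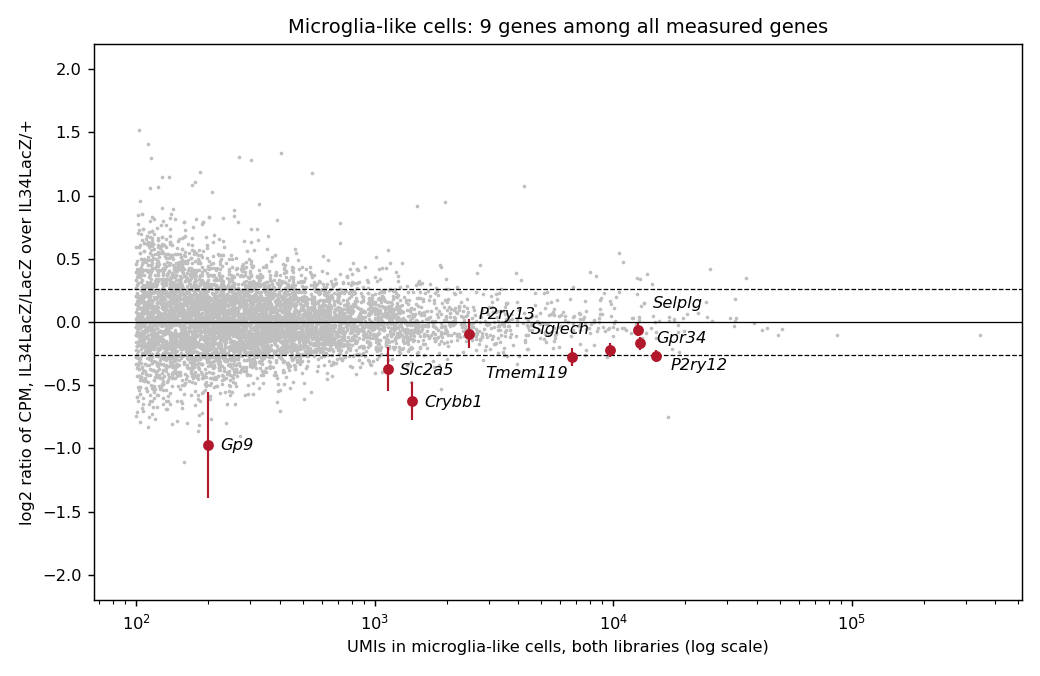
Log2 ratio of CPM in microglia-like cells, homozygous-labelled (IL34LacZ/LacZ) over heterozygous-labelled (IL34LacZ/+), against the gene's UMIs in these cells over both libraries (log scale), for 6647 genes in grey with the 9 genes named. All 9 lie below 0, Gp9 at 0.509 and Crybb1 at 0.647 on the ratio scale, and the scatter of the grey points narrows with depth.

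Other markers differed between the libraries in the same cells. Of all genes measured there, 13.2% were at least 1.2-fold higher in the homozygous-labelled library and 10.2% lower. Summed over its list, the chemokine genes stood at 1521 CPM in homozygous-labelled and 777 CPM in heterozygous-labelled microglia-like cells (4 of 5 measured genes at least 1.2-fold higher), the haemoglobin and erythroid genes at 581 and 280 CPM (4 of 4 higher) and the MHC class II genes at 343 and 267 CPM (4 of 5 higher). The BAM markers stood at 483 and 433 CPM (2 of 4 higher), and the choroid plexus markers at 2360 and 3977 CPM, nearly all of it Ttr (2335 and 3928 CPM). The median mitochondrial share was 2.79% and 2.84%. Their part in the result was not tested, other than by leaving cells out. Among the 731 homozygous-labelled and 571 heterozygous-labelled microglia-like cells with no UMI of 5 BAM markers, the summed log2 ratio was -0.17, against -0.20 over all of them, and 2 genes in place of 5 were at least 1.2-fold lower. No share of all genes past that fold is given for these cells, so the 2 counts are not set against a background.

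Microglia-like cells were not uniform in the 9 genes. Clustered again by themselves they gave 6 subclusters. A subcluster led by Ccl3 and Ccl4 (with Atf3, Cxcl2 and Il1b), of 92 homozygous-labelled and 74 heterozygous-labelled cells, held 8704 and 9547 CPM of the 9 genes summed. That is 0.810 (0.781 to 0.840) and 0.775 (0.744 to 0.807) of the same library's 4 other subclusters, which leave out this one and the next. A subcluster led by the BAM markers Pf4 and Ms4a7, of 47 and 18 cells, held 6492 and 8349 CPM, or 0.604 (0.570 to 0.641) and 0.678 (0.623 to 0.736). In the summed level both were thus lower than the other subclusters in both libraries. Not every gene of the Pf4 and Ms4a7 subcluster was. In heterozygous-labelled cells Crybb1 was at 1.22 (0.806 to 1.79) and Slc2a5 at 1.03 (0.597 to 1.67) of the other subclusters. In homozygous-labelled cells Gp9 was at 1.08 (0.342 to 2.65). The remaining genes were below 1 in each library. As the subclusters were cut from the same cells, with the 9 genes left out of the variable genes, these values describe them and are no test.

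Not every gene was lower in the Ccl3 and Ccl4 subcluster beyond counting error. P2ry12 was at 0.769 (0.711 to 0.829) and 0.719 (0.660 to 0.783) of its level in the other subclusters, and Siglech at 0.764 (0.694 to 0.840) and 0.751 (0.675 to 0.833). Slc2a5 was at 0.914 (0.691 to 1.19) and 0.801 (0.587 to 1.07), within counting error. Crybb1 in this subcluster was at 0.982 (0.763 to 1.25) and 0.688 (0.520 to 0.896), so the libraries did not show the same for it.

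The library difference was also seen within the subclusters. The summed level was lower in homozygous-labelled cells in 6 of 6, and so were P2ry12, P2ry13, Tmem119, Siglech, Slc2a5 and Crybb1. Gpr34 was lower in 5 of 6, Gp9 in 4 and Selplg in 3. These counts give the direction of each level only, at times within counting error. In subcluster 2, P2ry13 stood at 415.1 CPM in homozygous-labelled and 415.6 CPM in heterozygous-labelled cells. The share of all genes with the same direction is not given, and subclusters of the same libraries are not replicates. In the 4 other subclusters alone, with 851 and 632 cells, the sum was 10740 CPM in homozygous-labelled and 12320 CPM in heterozygous-labelled cells, a ratio of 0.872 (0.857 to 0.887). Without the Pf4 and Ms4a7 subcluster, 3 of the 9 genes rather than 5 were at least 1.2-fold lower, and no share of all genes is given for those cells.

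**Figure D4:**
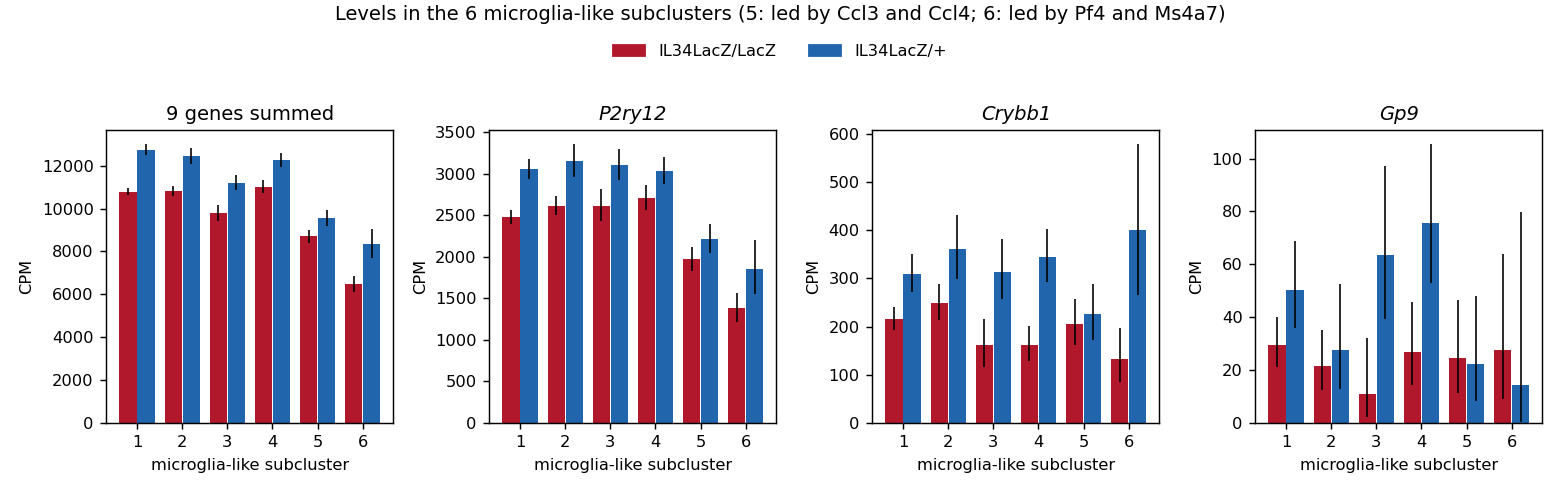
CPM of the 9 genes summed and of single genes in the 6 microglia-like subclusters, with homozygous-labelled (IL34LacZ/LacZ) bars left of heterozygous-labelled (IL34LacZ/+) bars and exact Poisson 95% intervals. Subcluster 5 is led by Ccl3 and Ccl4 and subcluster 6 by Pf4 and Ms4a7. The summed level is lowest in subcluster 6, at 6492 and 8349 CPM.

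The summed ratio was below 1 at each depth per cell, and those of Selplg and P2ry13 were not. In cells of 1000 to 2000 UMIs the summed ratio was 0.938 (0.897 to 0.980), in those of 2000 to 4000 it was 0.881 (0.859 to 0.903), and in those of 4000 and over 0.843 (0.823 to 0.864). Crybb1 was below 1 in each range, at 0.546 (0.389 to 0.760), 0.627 (0.531 to 0.739) and 0.679 (0.582 to 0.793). Selplg was higher in the homozygous-labelled library in the shallowest cells, at 1.29 (1.16 to 1.45), and lower in the others, at 0.936 (0.886 to 0.989) and 0.889 (0.845 to 0.936). In the shallowest cells P2ry13 was at 1.07 (0.846 to 1.36) and Tmem119 at 0.974 (0.841 to 1.13), both within counting error of 1. The shallowest range held 24.2% of homozygous-labelled and 33.7% of heterozygous-labelled microglia-like cells.

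**Figure D5:**
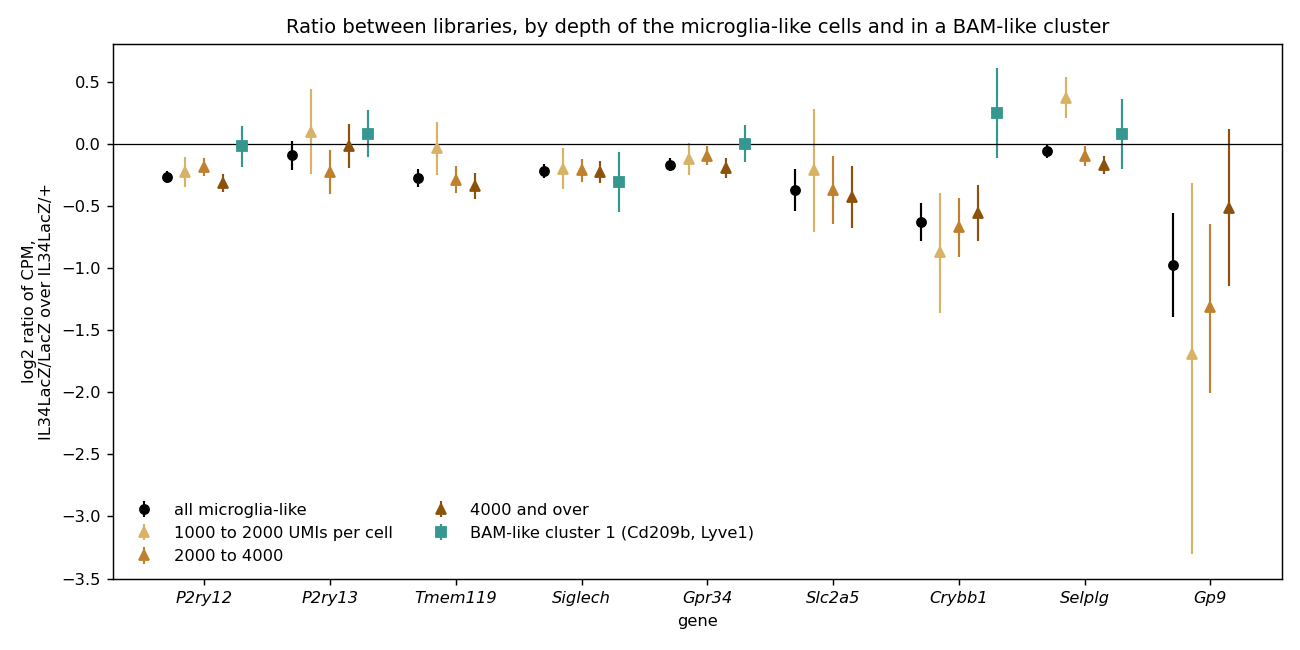
Log2 ratio of CPM, homozygous-labelled (IL34LacZ/LacZ) over heterozygous-labelled (IL34LacZ/+), of each gene in all microglia-like cells, in 3 ranges of UMIs per cell and in BAM-like cluster 1, with exact conditional binomial 95% intervals. Crybb1 is below 0 in all microglia-like ranges (ratios 0.546, 0.627 and 0.679) and Selplg is above 0 in the shallowest (1.29). Genes with fewer than 100 UMIs in the BAM-like cluster have no point there.

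Some BAM-like clusters were led by mast cell, chemokine or stress genes, so the libraries were compared within them by cluster number. Cluster 1, of 648 homozygous-labelled and 584 heterozygous-labelled cells led by Cd209b and Lyve1, held 803 and 811 CPM of the 9 genes summed, a ratio of 0.989 (0.935 to 1.05). P2ry12 was at 191 CPM in homozygous-labelled and 194 CPM in heterozygous-labelled cells of that cluster (0.986, 0.878 to 1.11) and Gpr34 at 246 and 246 CPM (1.001, 0.904 to 1.11). Of its 6 measured genes, 1 was at least 1.2-fold lower, near the 8.65% of all genes. This was Siglech, at 83.5 and 103 CPM (0.809, 0.684 to 0.957).

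In 3 further BAM-like clusters the interval of the summed ratio also held 1. The summed ratio was 0.985 (0.901 to 1.08) in cluster 3, 0.966 (0.874 to 1.07) in cluster 5 and 1.07 (0.977 to 1.17) in cluster 7, the MHC-II-high cells. Siglech in cluster 3 was at 123 and 175 CPM (0.705, 0.557 to 0.891), and Crybb1 in cluster 5, led by Ccl7, Ccl2 and Cxcl2, was at 29.7 and 69.5 CPM (0.428, 0.279 to 0.644). Crybb1 in cluster 1 was at 46.9 and 39.6 CPM (1.19, 0.924 to 1.52), so it was not lower in every BAM-like cluster. Tmem119 in cluster 7 was higher, at 143 and 110 CPM (1.30, 1.01 to 1.68). In cluster 8, the interferon BAM-like cells, the interval lay below 1. Its 99 homozygous-labelled and 193 heterozygous-labelled cells held 709 and 876 CPM of the 9 genes summed, a ratio of 0.809 (0.708 to 0.922). Siglech was at 69.4 and 127 CPM there (0.545, 0.357 to 0.814) and Gpr34 at 172 and 231 CPM (0.746, 0.568 to 0.973), while P2ry12 was at 187 and 199 CPM (0.941, 0.718 to 1.23). Siglech was thus below 1 beyond counting error in clusters 1, 3 and 8. The smaller BAM-like clusters, with fewer than 50 cells in a library, were not compared. Whether the ratios in BAM-like clusters differ from those in microglia-like cells was not tested.

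In endothelial-like cells, which are not known to express these genes, 5 of the 9 genes were measured and all 5 were at least 1.2-fold higher in the homozygous-labelled library, against 13.1% of genes. P2ry12 was at 25.2 and 20.02 CPM there (1.26, 0.955 to 1.66), and the sum of the 9 at 118 and 87.1 CPM (1.35, 1.19 to 1.54). The sum of the 9 in microglia-like cells lay in the opposite direction, and the difference between the classes was not tested.

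Other genes of the same pathways were set beside the 9 in microglia-like cells. Of 20 further homeostatic genes, all measured, 5 were at least 1.2-fold lower in the homozygous-labelled library and 0 higher, against 10.2% and 13.2% of all measured genes, with a median ratio of 0.931. Among the lowest were Upk1b, a uroplakin, at 19.0 and 40.9 CPM (0.465, 0.334 to 0.645), and the adhesion receptor gene Adgrg1 at 189 and 232 CPM (0.814, 0.725 to 0.915). Olfml3 and Fcrls, also lower, and Upk1b were among the markers that named the cells. Others of the list stood near 1, among them the fractalkine receptor gene Cx3cr1 (5460 and 5338 CPM, 1.02, 0.9996 to 1.05) and the CSF1 and interleukin-34 receptor gene Csf1r (3140 and 3129 CPM, 1.004, 0.974 to 1.03). The homeostatic genes were therefore not lower as a block.

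The partners of the single genes mostly stayed within 1.2-fold, as did most measured genes, of which 10.2% were lower and 13.2% higher. Of the 8 measured purinergic genes of 18 listed, 0 passed it in either direction, with Gnai3 and Gnai2, G protein subunits that couple to P2RY12, at 0.908 (0.721 to 1.15) and 0.929 (0.874 to 0.988) and the ATP-gated channel gene P2rx4 at 1.09 (0.918 to 1.30). Tyrobp, the adaptor of Siglec-H, was at 3233 and 3280 CPM (0.986, 0.957 to 1.02), and of the 5 measured genes of its list Hcst alone passed, at 1.26 (0.949 to 1.67). Abhd12, which breaks down lysophosphatidylserine, was at 0.980 (0.913 to 1.05), and 0 of the 2 measured genes of that list passed. Of the 3 measured selectin ligand enzymes, 0 passed, with Tpst2, a tyrosine sulfotransferase, lowest at 0.881 (0.781 to 0.9946).

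Crystallin and sugar transport genes were few. Of all measured genes, 10.2% were at least 1.2-fold lower in the homozygous-labelled library and 13.2% higher. Cryba4, another crystallin gene, was at 79.8 and 91.5 CPM (0.872, 0.725 to 1.05), and of 3 measured genes in the list Cryl1 was at least 1.2-fold lower, at 0.824 (0.680 to 0.998). Slc2a8, a glucose transporter gene, was lower at 0.624 (0.449 to 0.866) and Slc2a1 higher at 1.21 (0.863 to 1.72) with an interval that holds 1, and Khk, fructokinase, was at 0.982 (0.789 to 1.22). The partners of Gp9 in the platelet receptor were not measurable, with Gp1ba, Gp1bb and Gp5 at 0 UMIs in both libraries. Gp9 was thus counted in cells without UMIs of its complex.

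Of 15 microglial transcription factor and TGF-beta genes, all measured, 0 passed 1.2-fold in either direction, with a median of 1.04. Tgfbr2 was at 1.13 (1.02 to 1.24), Cebpa at 1.10 (0.969 to 1.26) and Sall1, the factor that marks microglia, at 1.01 (0.921 to 1.11). Immediate-early and stress genes, which tissue dissociation is known to induce, had 1 of 15 lower (Hspa1a, 0.766, 0.720 to 0.816) and 1 higher (Dusp1, 1.37, 1.24 to 1.51), with Zfp36 next at 1.17 (1.11 to 1.24). Beside both lists, 10.2% of all measured genes were lower and 13.2% higher. In the disease-associated list 6 of the 14 measured genes were higher, against 13.2% of all measured genes, and 0 lower, against 10.2%, with a median of 1.16. The largest were the lectin gene Clec7a at 61.3 and 24.9 CPM (2.47, 1.83 to 3.37), the phagocytic receptor gene Axl at 26.2 and 10.7 CPM (2.46, 1.55 to 4.03) and Csf1 at 45.2 and 22.2 CPM (2.04, 1.47 to 2.86), while Trem2, the receptor on which that state depends in mice, was at 0.947 (0.917 to 0.978).

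The genes whose levels followed the 9 most closely across cell classes were mostly other microglial genes. Likeness is Pearson's r of log2(CPM + 1) over 28 points, 14 classes in each of the 2 libraries, among 12128 genes. The points share libraries and depth, so r is a description. P2ry12 was nearest to Cx3cr1 (0.968) and Trem2 (0.966), and P2ry13 (0.976, 0.974) and Gpr34 (0.981, 0.980) were also nearest to Cx3cr1 and Trem2, followed by Cryba4 (0.974) for P2ry13. Among the 3 nearest to Siglech were Cx3cr1 (0.949) and Il1a (0.939), and among those to Selplg Havcr2 (0.959) and Bin2 (0.957).

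The genes of narrower range had other neighbours. Slc2a5 was nearest to the adenosine receptor gene Adora3 (0.935) and Liph (0.887), and Gp9, with few UMIs outside microglia-like cells, to Adora3 (0.897), Lag3 (0.875) and Ppcdc (0.862). Crybb1 was nearest to Cryba4 (0.960), Cx3cr1 (0.954) and Slamf6 (0.946). Tmem119 was nearest to Olfml3 (0.958) and Tgfbr1 (0.955). Among the 9 themselves, P2ry12 and Gpr34 were the most alike (0.986), and P2ry12 and P2ry13, 5389 bp apart, had 0.955.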

How the data were processed

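The deposited matrices, 1 per library, give raw UMI counts for each gene in each barcode from the Chromium 3′ v3.1 kit. Per the file headers, the authors' software was Cell Ranger 5.0.0. The genome build is GRCm38.p6 (mm10) per the submitters' processing notes. The authors' rule for keeping barcodes is not stated there, and the lowest total was 500 UMIs. Of the 25827 gene identifiers, 25702 (99.5%) were found in GENCODE vM21.

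From these counts, cells needed 1000 UMIs, 500 genes and a mitochondrial share of 10% or less, which left 51.0% of homozygous-labelled and 47.8% of heterozygous-labelled barcodes. Scrublet (expected rate 10%) was run on each library and the doublets it called were removed (6.46% and 6.44% of barcodes). Cells were clustered without the 9 genes on 2000 variable genes and 30 principal components, by the Leiden method at resolution 1 (20 neighbours, seed 1) without batch integration. Myeloid cells were then clustered again. Classes were named from marker lists, with thresholds set after seeing the data. These thresholds held the mixed macrophages out of the named classes (13.8% and 10.1% of macrophages). Tools were scanpy 1.11.5, leidenalg 0.10.2, scikit-learn 1.9.0, igraph 0.11.9, numpy 2.4.6, matplotlib 3.10.9 and scipy 1.17.1 under Python 3.11.15.

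UMIs were summed per class and library and scaled to CPM. Intervals are 95%, exact Poisson for levels, exact conditional binomial for ratios and Clopper-Pearson for shares, and cover counting error only. The ratio intervals alone were tried on simulated data. Those were Poisson counts drawn from the microglia-like means, with no added spread between cells or libraries, so they say nothing of such spread. Where 0 UMIs were seen, the limit is 3 counts. A gene was measured with at least 100 UMIs over both libraries in the class. With 1 library per genotype no p-value is given. The clusters of BAM-like cells are numbered from 1 by size.

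The 9 genes and all gene and marker lists were chosen with earlier results of these data known. Each of the 9 genes is named with its ratio in microglia-like cells and its fold over BAM-like cells. Other results name only some of them. Of a list, the 3 genes farthest from a ratio of 1 are named, with those linked to one of the 9, and Olfml3, Fcrls and Trem2 were named in addition. Pattern neighbours are the 3 most correlated genes with at least 500 UMIs. Some genes that these rules name are not reported here. 22 alternatives were tried.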

Additional observations from a re-analysis of the deposited data

Results flagged for a closer look

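In 10 cases a gene was lower in homozygous-labelled than heterozygous-labelled microglia-like cells but higher in 1 of 14 other classes or clusters compared, with counting intervals that held 1 in neither. The share of all genes that met this rule is not given. Of all measured genes, 21.8% were at least 1.2-fold higher in choroid-plexus-like, 13.1% in endothelial-like, 13% in fibroblast-like and 17.2% in neutrophil-like cells. In BAM-like cluster 7 it was 16.4%. The difference between the classes was not tested, since each genotype has 1 library. In microglia-like cells the ratios were 0.831 (0.805 to 0.858) for P2ry12, 0.827 (0.788 to 0.868) for Tmem119, 0.858 (0.825 to 0.894) for Siglech, 0.890 (0.860 to 0.922) for Gpr34 and 0.959 (0.925 to 0.993) for Selplg. The ratio of Selplg there lay above 1 under 3 other weightings of the cells.

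Among macrophages, Tmem119 had a ratio of 1.30 (1.01 to 1.68) in the MHC-II-high BAM-like cluster 7, from 143 CPM in homozygous-labelled and 110 CPM in heterozygous-labelled cells. In neutrophil-like cells P2ry12 had a ratio of 1.37 (1.16 to 1.62), from 451 and 330 CPM, and Selplg 1.45 (1.24 to 1.71), from 520 and 358 CPM. The 10 microglia markers summed to 5048 and 3516 CPM in those cells, and their part in the result was not tested.

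The other 7 were in classes not known for these genes. In choroid-plexus-like cells P2ry12 had a ratio of 1.5005 (1.27 to 1.78), from 34.2 and 22.8 CPM, Siglech 1.32 (1.04 to 1.66), from 17.0 and 12.9 CPM, Gpr34 1.49 (1.23 to 1.81), from 26.4 and 17.7 CPM, and Selplg 1.53 (1.26 to 1.84), from 28.7 and 18.8 CPM. In endothelial-like cells Gpr34 had a ratio of 1.44 (1.08 to 1.92), from 24.7 and 17.2 CPM, and Selplg 1.68 (1.25 to 2.27), from 25.6 and 15.2 CPM. In fibroblast-like cells Selplg had a ratio of 1.39 (1.06 to 1.84), from 13.2 and 9.46 CPM. Summed over the 9 genes, the ratio was 1.42 (1.30 to 1.55) in choroid-plexus-like, 1.35 (1.19 to 1.54) in endothelial-like and 1.07 (0.984 to 1.17) in fibroblast-like cells. Microglia-like cells were 10.3% of kept homozygous-labelled and 8.82% of kept heterozygous-labelled cells. The part of free RNA in these values was not tested.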

How the results depend on the processing

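In microglia-like cells the median log2 ratio of the 9 genes was -0.27 and kept its sign in 17 alternatives (-0.28 to -0.20). It was -0.20 with cells thinned to 2000 UMIs and -0.22 as a mean within the 2 clusters. The summed log2 ratio was -0.20 and stayed below 0 in 17 alternatives. It was -0.17 with equal weight per cell, -0.18 thinned, -0.17 in cells with no UMI of 5 BAM markers and -0.17 as a mean within 3 ranges of UMIs. The number of genes at least 1.2-fold lower was 5. It was 4 with a mitochondrial limit of 5%, with at least 2000 UMIs per cell and among genes with at least 500 UMIs. It was 3 with a mitochondrial limit of 20%, with equal weight, thinned, without the Pf4 and Ms4a7 subcluster, without it and the Ccl3 and Ccl4 subcluster, and within the clusters or UMI ranges, and 2 in cells with no UMI of BAM markers or past 1.5-fold. The cause of these moves was not tested, and apart from the 1.5-fold count no share of all genes is given beside them. Selplg turned to 0.029 with equal weight per cell, 0.041 within the 2 clusters and 0.036 within the UMI ranges. Crybb1 (-0.79 to -0.57) and Gp9 (-1.27 to -0.94) stayed below 0 in each alternative. The median log2 fold of microglia-like over BAM-like cells was 4.12 (4.08 to 4.23), with 6 genes past 10-fold in each alternative at that fold and 8 past 4-fold. The alternatives without the Pf4 and Ms4a7 subcluster, alone or with the other, the means within parts and the MHC-II-low comparison were added after seeing the data. No paired analysis was possible because each genotype has 1 library, so leaving one out gives no value either. Gp9 rests on 88 and 112 UMIs, which limits its ratio.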

Other observations

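Macrophages with markers of both types held the 9 genes at levels between those of microglia-like and BAM-like cells, at 4773 CPM summed in the 421 homozygous-labelled and 5074 CPM in the 280 heterozygous-labelled mixed macrophages. Their median depth was 6580 and 6052.5 UMIs, against 3037 and 2685 in microglia-like cells. P2ry13 gave 5.14% and 4.42% of the 9 genes' UMIs in them and Tmem119 10.3% and 10.6%. Together they held 23.6% and 22.0% of the P2ry12 UMIs of all kept cells, while microglia-like cells held 55.7% and 56.8%.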
